A study of Mus musculus with 9 samples.

Results

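The Hox genes of the 4 mouse clusters were described in skeletal stem cells from the healing femur. Every gene symbol made of Hox, a cluster letter from a to d and a paralogue number was taken, which gave 39 of the 53607 rows of the deposited table, and antisense or host transcripts of the clusters were left out of this set. RNA sequencing had been done on mouse skeletal stem cells (mSSC), a bone and cartilage progenitor population, collected from the fracture callus of C57BL/6J mice at day 10 after injury. The libraries came from mice of 2, 12 and 24 months (adult, middle-aged and aged), with 3 libraries per age. The 3 ages shared strain, bone, fracture and sort gate, and no genetic or drug treatment is given for any of them, so the samples hold no unfractured bone and no other skeletal site. Cells were sorted as CD45-, TER119-, TIE2-, THY1-, 6C3-, CD105- and ITGAV+, and each sample held between 500 and 1000 cells. Nothing in the labels says whether the 3 libraries of an age came from separate animals, so each p-value measures the spread between these libraries, which may in part be technical.

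Hox genes encode homeodomain transcription factors that give cells a position along the body axis and along the limb. They lie in clusters in which the order of the genes follows the order of their expression from anterior to posterior, and genes of the same number in different clusters are paralogues with overlapping roles. In the mouse limb, groups 9 and 10 act in the proximal segment that holds the femur, group 11 in the segment below the knee or elbow, and group 13 in the paw. Adult skeletal cells are known to keep part of the embryonic pattern of the site they came from, which is why these genes are read as a record of positional identity.

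Levels are given in TPM, a relative abundance scaled for transcript length and to the same total in every library, so that levels of different genes can be set beside each other. A Hox gene was kept for testing when it reached 1 TPM in at least 3 of the 9 libraries. Of the 39 Hox genes 15 passed this filter and 24 did not, and the expressed set was a small part of the family. At least 1 TPM in all 9 libraries was found for 9 genes, which were Hoxa10, Hoxa9, Hoxb2, Hoxa7, Hoxc10, Hoxc6, Hoxc9, Hoxc8 and Hoxd8. A mean of 10 TPM or more was reached by 5 of them, and even these were of middle rank among all expressed genes: 68.6% of the 14501 genes kept had a lower mean than Hoxa10.

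**Figure D1:**
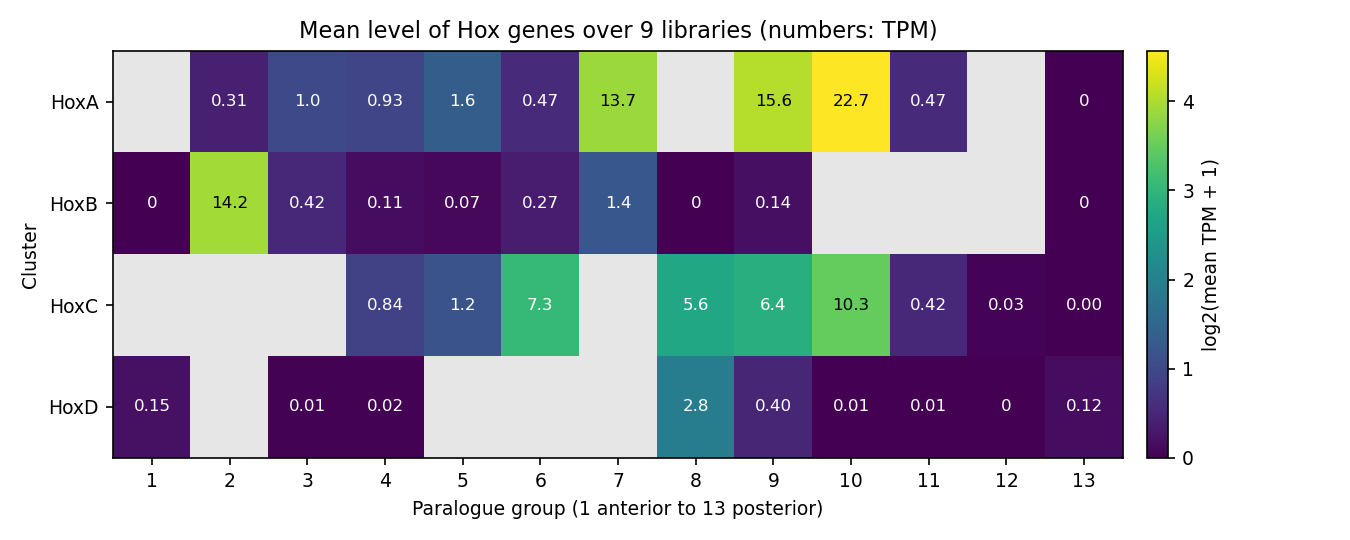
Mean level of the Hox genes over the 9 libraries, with clusters in rows and paralogue groups 1 (anterior) to 13 (posterior) in columns. The number in each square is the mean TPM, the colour is log2(mean TPM + 1) and grey squares have no gene or are not reported; the bright squares are Hoxa10 (22.7), Hoxa9 (15.6), Hoxb2 (14.2), Hoxa7 (13.7) and Hoxc10 (10.3), and every square of groups 11 to 13 is below 0.5.

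The expressed code of these cells centred on paralogue groups 9 and 10 of the HoxA and HoxC clusters. Groups 9 and 10 together held 53.6% ± 4.96, 49.7% ± 4.11 and 49.3% ± 7.87 (SD, n = 3 each) of the summed Hox TPM in the libraries of 2, 12 and 24 months, and single libraries ranged from 44.6% to 59.2%. Group 10 alone held 33.4% ± 5.24, 28.7% ± 1.86 and 28.6% ± 4.99 at 2, 12 and 24 months. These ranges overlapped between the ages. By cluster, HoxA contributed on average 52.9% of the Hox TPM, HoxC 29.4%, HoxB 14.5% and HoxD 3.16%.

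Hoxa10, the group 10 gene of the HoxA cluster and in the mouse a patterning gene of the femur, was the most abundant Hox gene in 6 of the 9 libraries. It lies at chr6:52231197-52240854 on the minus strand (GRCm38, GENCODE M21). Its level was 28.2, 23.8 and 21 TPM at 2 months, 19.1, 15.2 and 22 TPM at 12 months, and 27.8, 19.7 and 27.6 TPM at 24 months. The 3 ages overlapped, and the lowest 2 values were from 12 months. The log2 fold change was 0.03 ± 0.21 for 24 against 2 months (SE, 95% interval -0.43 to 0.50) and -0.36 ± 0.21 for 12 against 2 months, with limma adjusted p = 0.952 and 0.428. Its paralogue Hoxc10, linked in the mouse with hindlimb-level identity, had 9.46, 11.3 and 8.95 TPM at 2 months, 10.7, 9.37 and 7.31 TPM at 12 months, and 14.2, 10.2 and 10.9 TPM at 24 months. Its values overlapped between all ages. The third paralogue, Hoxd10, was listed at 0 in 7 libraries and did not exceed 0.0747 TPM.

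In group 9, Hoxa9, a HoxA gene known for its role in limb and blood progenitors, had 10.1, 13.5 and 17.0 TPM at 2 months, 13.4, 13.2 and 16.2 TPM at 12 months, and 23.4, 17.8 and 15.7 TPM at 24 months. The highest 2 of the 9 values were from 24 months, while the third library of that age lay inside the range of the younger ones. For 24 against 2 months limma gave it a log2 fold change of 0.47 ± 0.23 (SE, adjusted p = 0.379). Hoxc9, which in mouse embryos marks thoracic levels, averaged 6.97 ± 1.76, 5.85 ± 1.05 and 6.29 ± 1.37 TPM at 2, 12 and 24 months (SD, n = 3 each). Hoxb9 did not exceed 0.671 TPM in any library. Hoxd9 is described with the 24-month libraries.

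Levels dropped between groups 10 and 11. None of the 9 members of groups 11, 12 and 13 was kept for testing, and the highest mean among them was the 0.471 TPM of Hoxa11, a gene known for patterning of the lower leg and forearm. Hoxa11 had 0.646, 0.885 and 0.297 TPM at 2 months, 0.0638, 0 and 0.335 TPM at 12 months, and 0.404, 1.15 and 0.463 TPM at 24 months. The 12-month libraries held its lowest value and 1 library of 24 months its highest, and 2 and 24 months overlapped. Hoxc11 averaged 0.417 TPM and Hoxd11 0.012 TPM. In group 13, which patterns the paw, Hoxa13 and Hoxb13 were listed at 0 in all 9 libraries, Hoxd13 reached at most 0.47 TPM and Hoxc13 at most 0.0186 TPM. Hoxa10 and Hoxa11 are neighbours on chromosome 6, so the step from 22.7 to 0.471 TPM in mean level falls between adjacent genes.

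The sequences upstream of adjacent Hox genes on either side of such steps are shown because they let the promoters be read beside the levels. Each is the stretch before the RefSeq transcription start (GRCm38.p6), 5′ to 3′ on the strand of the gene, with CpG dinucleotides, the sites of DNA methylation, in capitals. Hoxa10 (22.7 TPM) is given for chr6:52240855-52241104, minus strand, and Hoxa11 (0.471 TPM) for chr6:52245811-52246060, minus strand. Hoxd8 (2.83 TPM) is given for chr2:74704365-74704614, plus strand, and Hoxd10 (0.0103 TPM) for chr2:74691641-74691890, plus strand. Hoxd9 (0.404 TPM) is given for chr2:74697513-74697726, plus strand, which ends where the GENCODE gene begins.
Hoxa10: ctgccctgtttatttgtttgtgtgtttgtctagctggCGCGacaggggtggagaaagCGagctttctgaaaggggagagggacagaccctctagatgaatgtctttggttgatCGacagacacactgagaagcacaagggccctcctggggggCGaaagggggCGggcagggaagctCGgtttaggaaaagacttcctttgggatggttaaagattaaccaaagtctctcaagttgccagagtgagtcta
Hoxa11: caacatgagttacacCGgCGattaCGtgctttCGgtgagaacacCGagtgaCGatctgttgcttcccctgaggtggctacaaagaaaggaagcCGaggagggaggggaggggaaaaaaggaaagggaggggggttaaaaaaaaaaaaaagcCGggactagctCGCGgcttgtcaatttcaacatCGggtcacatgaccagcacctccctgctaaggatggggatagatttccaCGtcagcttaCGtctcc
Hoxd8: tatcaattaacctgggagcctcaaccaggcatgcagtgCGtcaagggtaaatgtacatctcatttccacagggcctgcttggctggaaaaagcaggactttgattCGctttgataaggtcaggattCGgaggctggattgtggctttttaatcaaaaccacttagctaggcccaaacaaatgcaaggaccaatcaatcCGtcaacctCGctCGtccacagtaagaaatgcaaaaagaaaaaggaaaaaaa
Hoxd9: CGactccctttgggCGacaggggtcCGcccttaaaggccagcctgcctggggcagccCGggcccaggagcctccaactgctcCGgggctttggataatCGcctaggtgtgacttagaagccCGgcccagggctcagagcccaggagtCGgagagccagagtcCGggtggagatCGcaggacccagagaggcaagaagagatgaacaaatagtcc
Hoxd10: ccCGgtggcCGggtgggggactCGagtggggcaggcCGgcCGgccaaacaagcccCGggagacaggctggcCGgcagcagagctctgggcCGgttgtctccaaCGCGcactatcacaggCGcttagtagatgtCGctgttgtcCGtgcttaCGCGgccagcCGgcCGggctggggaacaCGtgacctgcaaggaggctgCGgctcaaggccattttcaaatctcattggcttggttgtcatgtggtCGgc

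The Hoxa10 stretch holds 7 CpG and that of Hoxa11 13, while Hoxd8, Hoxd9 and Hoxd10 hold 6, 10 and 20. A window of 250 bases was found in RefSeq for 22 of the 39 Hox genes, and the median over all 32851 windows of that length was 6 CpG. The 7 kept Hox genes with a window had a median of 7 CpG (range 3 to 28), and the 15 that were not kept had a median of 13 (range 2 to 35), so the ranges overlapped almost wholly. The windows of the kept Hoxa9, Hoxa7, Hoxa3 and Hoxc4, and of Hoxd4 among the others, lie inside the GENCODE gene. These medians therefore describe in part sequence beyond the GENCODE start. None of the 5 printed stretches holds, on either strand, the letters TGATTNAT, searched as a joint PBX-HOX site, or TTTATNG, searched as a site of posterior HOX proteins. The first motif was found in 2.82% of all windows and in 1 Hox window (Hoxa2), and the second in 9.81% of all windows and in 2 Hox windows (Hoxb8 and Hoxd4). A match, or its lack, in these windows says nothing about binding.

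In groups 6 to 8 the higher levels were those of Hoxa7, Hoxc6 and Hoxc8. Hoxa7, a regulator of trunk-level identity, had 13.8, 7.39 and 19.3 TPM at 2 months, 18.7, 15.4 and 16.2 TPM at 12 months, and 11.1, 10.5 and 10.7 TPM at 24 months. The 3 libraries of 24 months lay below all 3 of 12 months, and the 2-month libraries spanned both. The log2 fold change was -0.59 ± 0.29 for 24 against 12 months (SE, limma adjusted p = 0.377). Of the exonic bases of Hoxa7, 20.4% overlap the antisense gene Hoxaas3, and no source used here states the strand setting, so reads of the overlapping pair cannot be told apart. Hoxc6 averaged 7.34 TPM and Hoxc8 5.65 TPM over the 9 libraries, both genes of the thoracic part of the embryonic code. Each of them had overlapping values at the 3 ages.

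Groups 1 to 5 were low, with 1 exception. Hoxa5, known for lung and cervical patterning, averaged 1.56 TPM, Hoxc5 1.24 TPM, Hoxa3 1.00 TPM, Hoxa4 0.926 TPM and Hoxc4 0.836 TPM, and Hoxb7, in the middle of the HoxB cluster, averaged 1.35 TPM. All 6 were under 1 TPM in at least 2 libraries. Hoxb2, known for hindbrain segment identity, was the exception with a mean of 14.2 TPM, although its HoxB neighbours Hoxb1 (listed at 0 in all 9 libraries) and Hoxb3 (mean 0.417 TPM) were low. Its locus is chr11:96350525-96354012 on the plus strand, and 27.3% of its exonic bases overlap Hoxb3os, a transcript of the opposite strand that averaged 1.59 TPM.

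The 24 genes below the filter were accounted for as follows. In every library 19 of them stayed under 1 TPM: Hoxb3, Hoxc11, Hoxb6, Hoxd1, Hoxb9, Hoxd13, Hoxb4, Hoxb5, Hoxc12, Hoxd4, Hoxd3, Hoxd11, Hoxd10, Hoxc13, Hoxa13, Hoxb8, Hoxb1, Hoxb13 and Hoxd12, of which the last 5 were listed at 0 throughout. The other 5 reached 1 TPM in 1 or 2 libraries. They include Hoxa6, Hoxa11, Hoxa2 and Hoxd9, of which Hoxd9 had the highest value with 1.38 TPM in library 3 of 24 months. In TPM an exact 0 can also be a failed estimate. Just inside the filter, Hoxc4 was at 1 TPM or more in 3 libraries; just outside it, Hoxd9 was in 2.

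**Figure D2:**
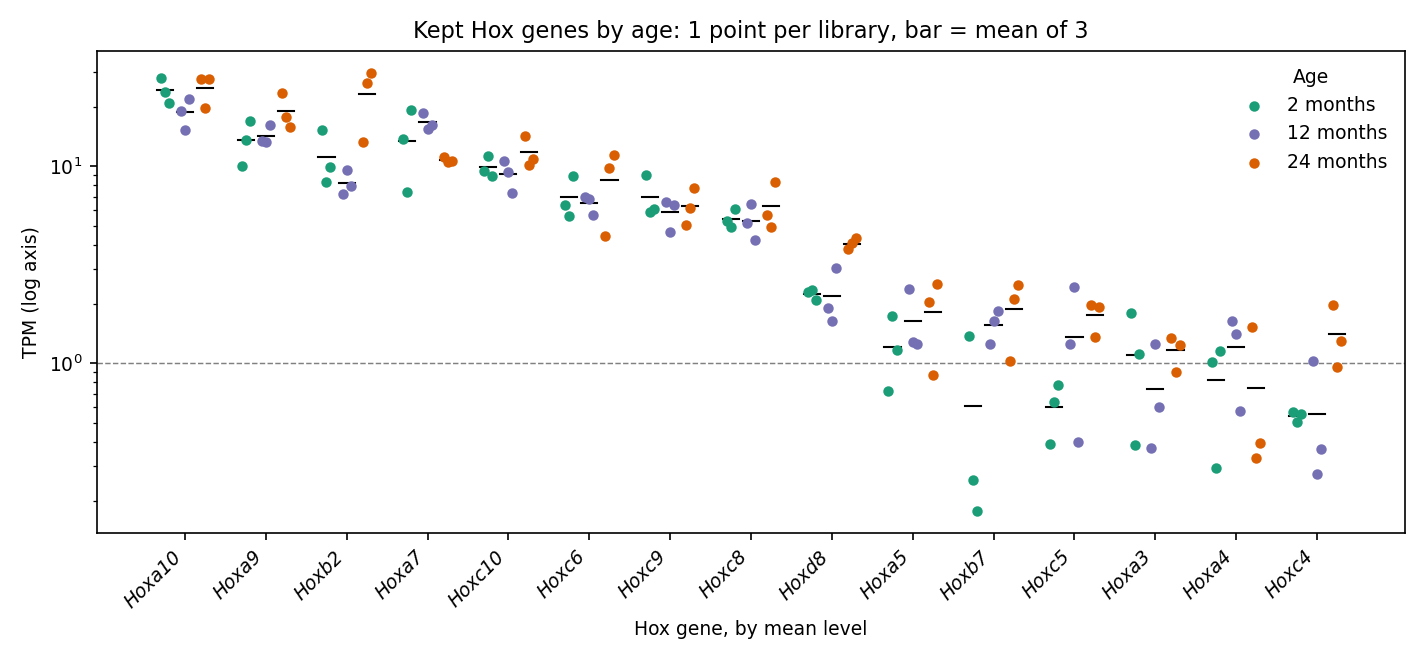
Level in TPM on a log axis of the 15 Hox genes kept for testing, ordered by mean level, with 1 point per library, bars at the mean of 3 libraries and ages 2, 12 and 24 months from left to right within each gene; the dashed line marks 1 TPM. Hoxb2 and Hoxd8 have their highest values at 24 months (29.8 and 4.30 TPM), as do several other genes, among them Hoxa9 and Hoxc10 (23.4 and 14.2 TPM). Hoxb2 overlaps between 2 and 24 months, and most other genes overlap between the ages.

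The same 8 genes held ranks 1 to 8 in each library. Below them the order varied more, as with Hoxc5 (ranks 9 to 15) and Hoxb7 (ranks 10 to 15). Hoxa10 held rank 1 or 2 everywhere, Hoxa9 ranks 2 to 4, and Hoxd8 ranks 9 or 10. Hoxb2 ranged from rank 5 in library 1 of 12 months to rank 1 in libraries 2 and 3 of 24 months, and Hoxa7 ranged from rank 1 to rank 6. Neighbours in the order were mostly within each other's spread, as with Hoxa9 (15.6 TPM), Hoxb2 (14.2 TPM) and Hoxa7 (13.7 TPM), which exchanged places between libraries. The median SD between libraries of an age, on the log2 scale, was 0.272 for the 8 Hox genes with a mean of 5 TPM or more and 0.389 for the 7 kept genes below that, beside 0.336 over all genes tested. Precision was thus lower for the genes of lower level.

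**Figure D3:**
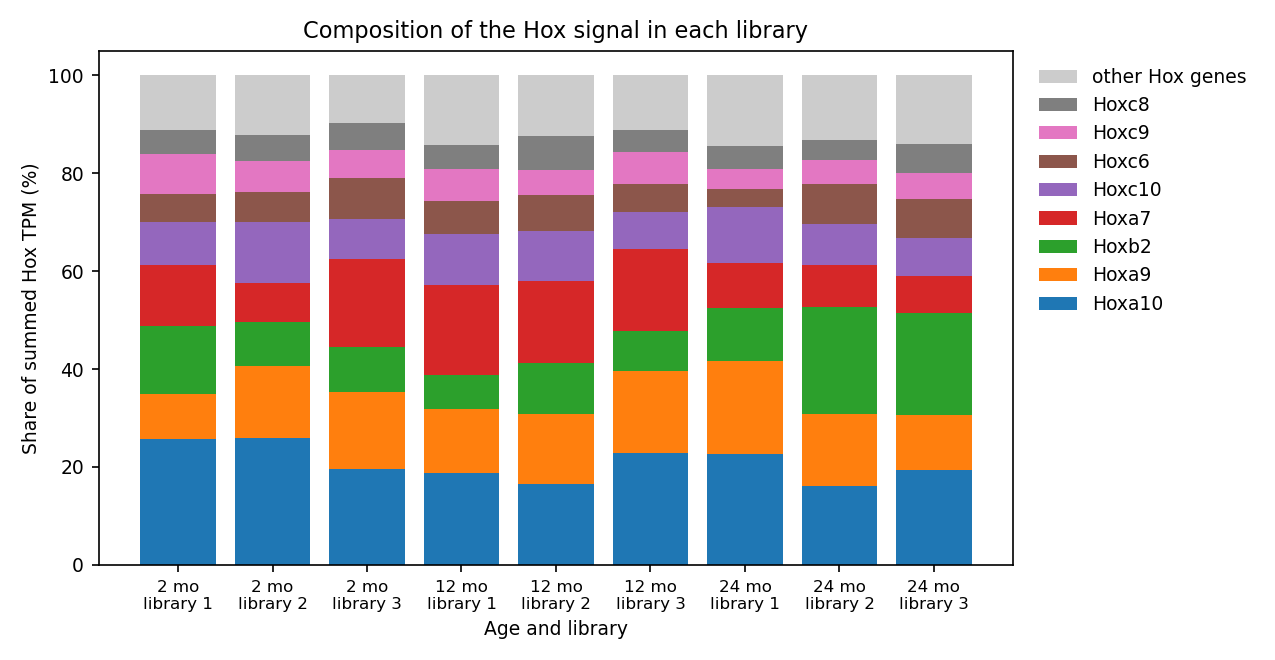
Share in percent of the summed Hox TPM held by each of the 8 most abundant Hox genes in each library, with all other Hox genes in light grey and ages 2, 12 and 24 months from left to right. Hoxa10 and Hoxa9 form the base of every bar, and Hoxb2 takes its largest part in libraries 2 and 3 of 24 months.

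The summed level of all Hox genes was 110, 91.9 and 108 TPM at 2 months, 102, 92.2 and 96.7 TPM at 12 months, and 123, 122 and 142 TPM at 24 months, or about 0.01% of all transcripts. The 3 libraries of 24 months were above the other 6. HoxB held 12.5% ± 3.58, 10.7% ± 1.55 and 20.3% ± 7.21 of this sum at 2, 12 and 24 months, and HoxA held 55.0% ± 2.39, 56.5% ± 3.64 and 47.3% ± 8.06 (SD, n = 3 each). Library 1 of 24 months had HoxA at 56.6% and HoxB at 11.9%, inside the range of the younger ages, so the different make-up was seen in libraries 2 and 3 of that age. These sums are descriptions without a test. In bulk RNA, fewer cells that express a gene and less of its RNA per cell cannot be told apart.

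Library 1 of 24 months stood apart from the rest. Its mean correlation with the other libraries was 0.932, against 0.953 to 0.962 for the other 8, and it listed 33313 rows at 0, against 29284 to 31082. Of the genes of the sort gate, Itgav (ITGAV+) was at 25.2 to 50.1 TPM, while Ptprc (CD45-) and Tek (TIE2-) stayed below 0.31 TPM and Thy1, Enpep (6C3-) and Eng (CD105-) reached at most 4.27, 1.63 and 4.08 TPM. No gene was read for TER119, which the gate also excludes. The 6 erythroid markers summed to 73.3 to 965 TPM over the 9 libraries. Cartilage transcripts were abundant, with 10 chondrocyte markers summing to 60130 to 68910 TPM at 2 months, 30904 to 42798 TPM at 12 months and 27116 to 47138 TPM at 24 months.

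Whether the code shifts with age was tested with limma over all 14501 kept genes, with Benjamini-Hochberg adjustment and a threshold of 0.05. None of the 15 Hox genes passed in any of the 3 pairwise comparisons, in the F test for any difference among ages, or in a trend over age in months. Of all genes tested, 0.159% passed for 24 against 2 months, 0.724% for 12 against 2 months, 0.455% for 24 against 12 months, 0.759% in the F test and 0% in the trend, which leaves less than 1 such gene to be found in a set of 15. The F test gave 1 Hox gene at an unadjusted p under 0.05 (Hoxb2, beside 18.1% of all genes). The trend gave 4 (Hoxb2, Hoxb7, Hoxd8 and Hoxc5, beside 12.2% of all genes). Hoxc5 reached 1 TPM in no library of 2 months and passed the filter through the older libraries alone. That favours a trend, so its p is not evidence of a shift. With 3 libraries per age the 95% interval of a kept Hox gene reached a median of 0.678 log2 units to either side. That interval is not adjusted for the 14501 genes tested, so larger shifts could also stay uncalled. An example is Hoxb2, with a log2 fold change of 1.32 for 24 against 12 months (limma adjusted p = 0.0903). The lack of calls therefore does not exclude shifts of either size.

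**Figure D4:**
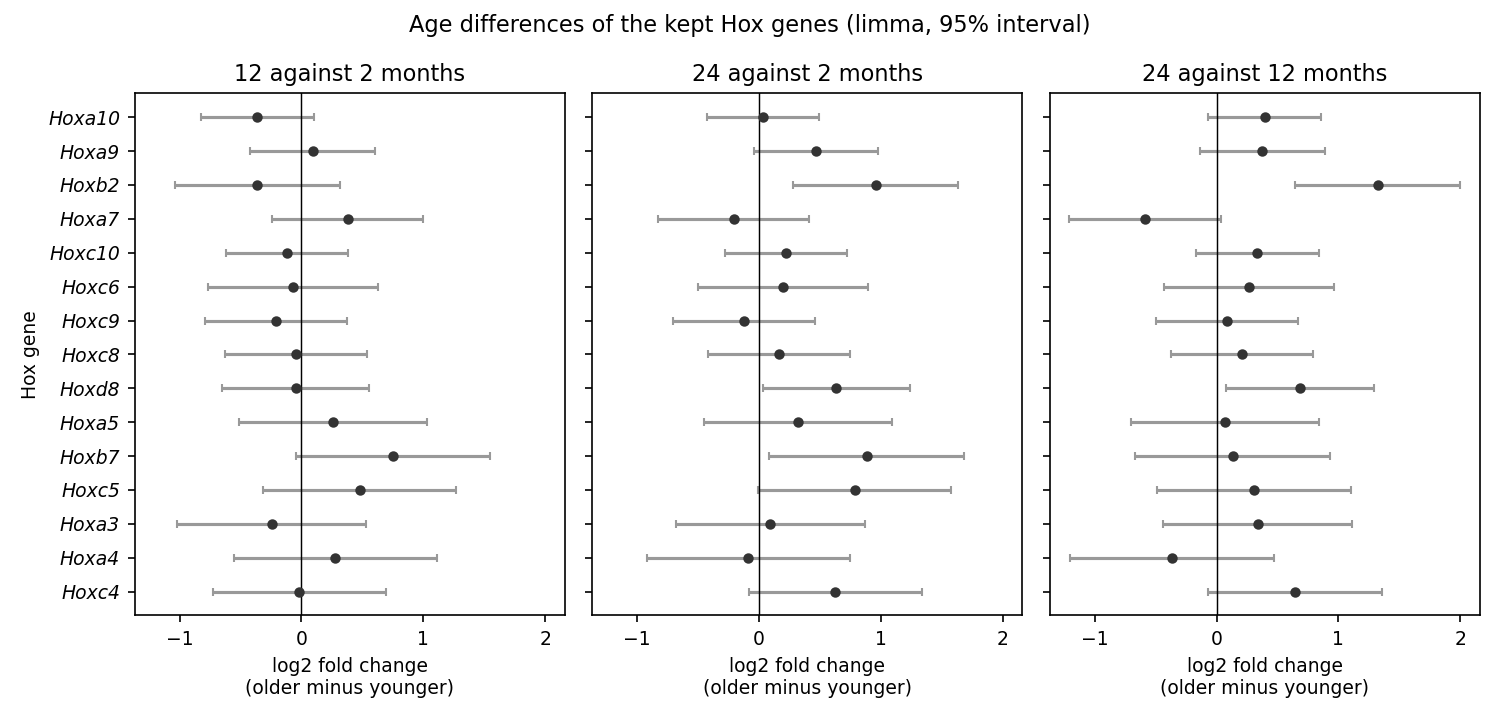
Log2 fold changes (older minus younger age) of the 15 kept Hox genes from limma with 95% intervals, for 12 against 2, 24 against 2 and 24 against 12 months from left to right. Hoxb2 lies furthest to the right in the 2 comparisons of 24 months (0.96 and 1.32), and the intervals of most genes include 0.

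Among the pairwise comparisons, an unadjusted p under 0.05 was found for 3 Hox genes for 24 against 2 months (Hoxb2, Hoxb7 and Hoxd8), all higher at 24 months, where 14.5% of all genes had such a p and 7.9% were also higher. For 24 against 12 months it was found for 2 (Hoxb2 and Hoxd8), again higher, where 14.1% of all genes had such a p and 9.09% were also higher. For 12 against 2 months it was found for no Hox gene, where 15.6% of all genes had such a p. The fold change was positive for 12 of 15 Hox genes for 24 against 2 months, 6 of 15 for 12 against 2 months and 13 of 15 for 24 against 12 months, beside 47.9%, 42.8% and 57.4% of all genes. Median log2 fold changes of the 15 were 0.22, -0.04 and 0.31 in the same order, against -0.02, -0.07 and 0.07 over all genes. The counts and medians include Hoxc5 and Hoxc4, both positive for 24 against 2 months. These reached 1 TPM in no library of 2 months and were kept through the older libraries alone, which favours a positive sign. The comparisons share their libraries pairwise, so they do not repeat each other independently. Leaving out Hoxb2, no kept Hox gene reached an adjusted p under 0.295 in any of them.

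Hoxb2 had 15.2, 8.29 and 9.93 TPM at 2 months, 7.21, 9.56 and 7.93 TPM at 12 months, and 13.3, 26.5 and 29.8 TPM at 24 months. All 3 values of 24 months were above all 3 of 12 months, whereas library 1 of 24 months was below the highest of 2 months. The log2 fold change was 1.32 ± 0.31 for 24 against 12 months (SE, 95% interval 0.64 to 2.00, limma adjusted p = 0.0903) and 0.96 ± 0.31 for 24 against 2 months (0.28 to 1.64, limma adjusted p = 0.225). In the F test its limma adjusted p was 0.105. Once library 1 of 24 months was left out, the same F test gave an adjusted p of 0.0379, and over all alternatives that of Hoxb2 ranged from 0.0379 to 0.351. The adjusted p for 24 against 12 months ranged from 0.0528 to 0.325 over the alternatives. Hoxb2 therefore stayed short of the threshold with all 9 libraries, and a single library set the side on which its F test fell.

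Hoxd8, a group 8 gene and the only kept member of the HoxD cluster, had 2.29, 2.37 and 2.10 TPM at 2 months, 1.90, 1.64 and 3.05 TPM at 12 months, and 3.78, 4.07 and 4.30 TPM at 24 months. Its 24-month values lay above all 6 others and within a narrow band. For 24 against 2 months limma gave a log2 fold change of 0.64 ± 0.28 (SE, adjusted p = 0.324), and for 24 against 12 months 0.68 ± 0.28 (adjusted p = 0.295). It shares no exonic bases with another annotated gene. Its neighbour Hoxd9 was listed at 0, 0 and 0.0527 TPM at 2 months, 0, 0 and 0.308 TPM at 12 months, and 1.27, 0.631 and 1.38 TPM at 24 months. Here too the 24-month libraries were the highest 3. Hoxd9 was below the filter, and in a fit with no filter, added after its values were seen, its log2 fold change was 1.02 ± 0.17 for 24 against 2 months (SE, limma adjusted p = 0.313) and 0.92 ± 0.17 for 24 against 12 months (limma adjusted p = 0.216). That fit covered 33101 rows, of which 34 were Hox genes, and it called 0, 8 and 0 rows for 24 against 2, 12 against 2 and 24 against 12 months. Of the other HoxD genes, Hoxd10, Hoxd11 and Hoxd12 on the posterior side stayed at or below 0.0747 TPM at every age.

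**Figure D5:**
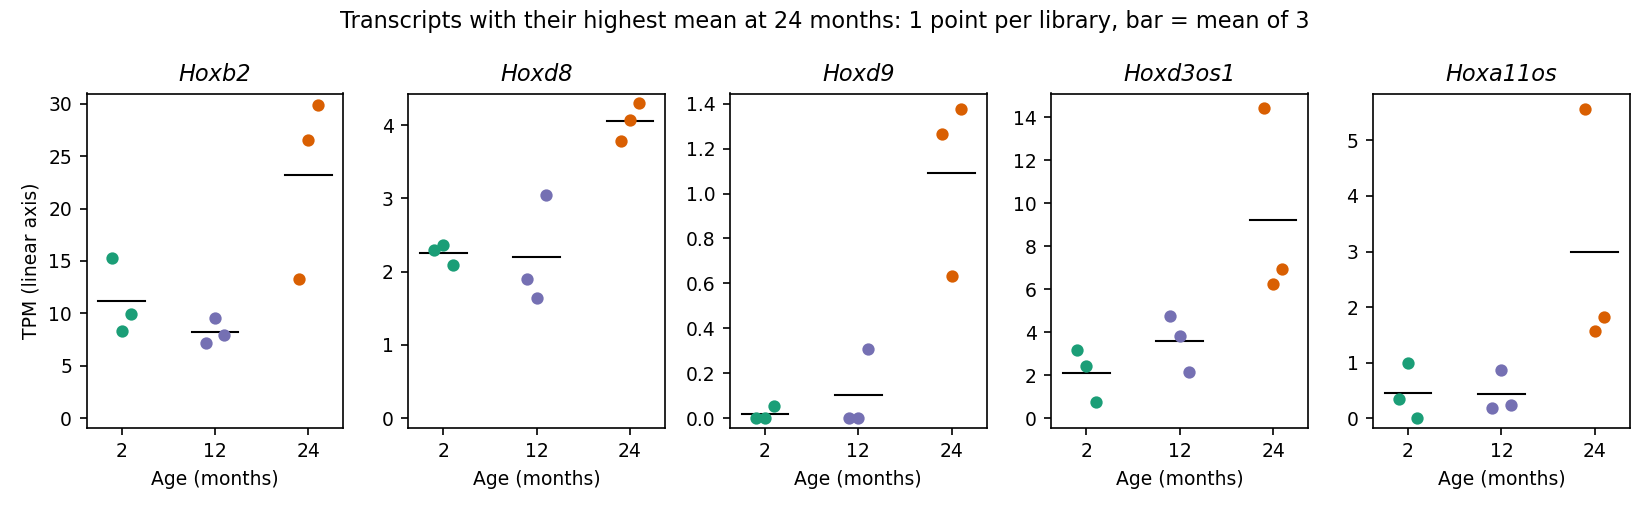
Level in TPM on linear axes at 2, 12 and 24 months, 1 point per library with bars at the mean of 3, for Hoxb2, Hoxd8, Hoxd9 and the antisense transcripts Hoxd3os1 and Hoxa11os. The transcripts were chosen after their values were seen, and Hoxa11os passed the filter through its 24-month libraries alone. In the Hoxd8, Hoxd9 and Hoxd3os1 panels all 3 points of 24 months lie above the other 6, and the Hoxb2 point of 13.3 TPM is library 1 of 24 months.

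Values of the 24-month libraries above all of 2 months were found for 3 kept Hox genes, Hoxd8, Hoxc5 and Hoxc4, where 11.2% of all genes had non-overlapping higher values. Hoxc5 and Hoxc4 reached 1 TPM in no library of 2 months. They passed the filter through the older libraries alone, which favours such a separation, so it is not evidence of a shift. For 24 against 12 months 2 were wholly higher (Hoxb2 and Hoxd8; 11.1% of all genes) and 1 wholly lower (Hoxa7; 6.14%), and for 12 against 2 months none was separated (25% of all genes). Hoxc5 had 0.388, 0.636 and 0.774 TPM at 2 months, 1.25, 2.45 and 0.397 TPM at 12 months, and 1.97, 1.36 and 1.93 TPM at 24 months. One 12-month library was as low as those of 2 months. For 24 against 2 months limma gave a log2 fold change of 0.78 ± 0.36 (SE, adjusted p = 0.349). Of its exonic bases 5.37% are shared with Hoxc10 on the same strand, so reads there can be split between both. Hoxc4, the neighbour at the anterior end of HoxC, had 0.565, 0.505 and 0.551 TPM at 2 months, 1.02, 0.275 and 0.366 TPM at 12 months, and 1.98, 0.960 and 1.30 TPM at 24 months. The 12- and 24-month values overlapped by 1 library, and the log2 fold change was 0.64 ± 0.33 for 24 against 12 months (SE, limma adjusted p = 0.399). Hoxb7 had 1.38, 0.257 and 0.178 TPM at 2 months, 1.25, 1.63 and 1.83 TPM at 12 months, and 1.03, 2.11 and 2.49 TPM at 24 months, so library 1 of 2 months lay among the older ones. Its log2 fold change was 0.88 ± 0.37 for 24 against 2 months (SE, limma adjusted p = 0.305).

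The clusters also hold 43 rows for genes not annotated as protein-coding, chosen by their coordinates within the cluster spans after the files were seen. Of these 9 were kept, 21 were listed at 0 in all libraries, and none passed the test in any comparison, with 2, 3 and 2 at an unadjusted p under 0.05 for 24 against 2, 12 against 2 and 24 against 12 months (14.5%, 15.6% and 14.1% of all genes). Hoxd3os1, an antisense transcript at chr2:74703248-74716130 whose span covers Hoxd8, had 3.18, 2.45 and 0.732 TPM at 2 months, 4.75, 3.80 and 2.16 TPM at 12 months, and 14.4, 6.22 and 6.96 TPM at 24 months. The 24-month values were the highest 3, with a log2 fold change of 1.72 ± 0.41 for 24 against 2 months (SE, limma adjusted p = 0.140). Hoxa11os, the antisense partner that overlaps 35.0% of the exonic bases of Hoxa11, had 0.350, 0.990 and 0 TPM at 2 months, 0.187, 0.863 and 0.233 TPM at 12 months, and 5.57, 1.57 and 1.82 TPM at 24 months. It reached 1 TPM in the 3 libraries of 24 months alone and so passed the filter through that age, which fixes that they are its highest 3, and it is 1 of the 2 rows counted above in both comparisons of 24 months. Hotairm1, a non-coding RNA of the HoxA cluster, was at 10.9 ± 2.91, 23.4 ± 8.06 and 14.2 ± 8.43 TPM at 2, 12 and 24 months (SD, n = 3 each), and its values of 12 months did not overlap those of 2 months (limma adjusted p = 0.204). Hoxaas3 averaged 4.60 ± 1.76 TPM at 12 months and 1.54 ± 1.09 TPM at 2 months (SD, n = 3 each, limma adjusted p = 0.223).

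HOX proteins bind DNA together with cofactors of the TALE homeodomain class, and 7 of 9 genes of this class were kept. None passed in any comparison, and 1 had an unadjusted p under 0.05 (for 24 against 2 months, where 14.5% of all genes had one). A positive log2 fold change for 24 against 2 months was found for 6 of 7, beside 47.9% of all genes. Meis3 had 9.19, 6.44 and 5.77 TPM at 2 months, 8.32, 11 and 8.92 TPM at 12 months, and 24.5, 13.1 and 7.74 TPM at 24 months. Its ages overlapped, the highest value was that of library 1 of 24 months, and the limma adjusted p for 24 against 2 months was 0.289. Meis1, Meis2 and Pknox1 averaged 2.91, 7.15 and 7.82 TPM.

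Among limb identity factors, Pitx1 was expressed in every library while Tbx4 and Tbx5 were near 0 in most. Pitx1, which specifies hindlimb identity, was at 19.8, 17.6 and 16.2 TPM at 2 months, 20.6, 28.4 and 19.4 TPM at 12 months, and 15.4, 16.1 and 15.9 TPM at 24 months. Its 24-month values were below all others, with a log2 fold change of -0.48 ± 0.20 for 24 against 12 months (SE, limma adjusted p = 0.291). Tbx4, the hindlimb T-box gene, averaged 0.286 TPM, and Tbx5, its forelimb counterpart, 0.272 TPM, and each reached 1 TPM in 1 library only. Of the 15 genes of this list 8 were kept and none passed, with 2, 1 and 3 at an unadjusted p under 0.05 for 24 against 2, 12 against 2 and 24 against 12 months (14.5%, 15.6% and 14.1% of all genes). Prrx2, a homeobox gene of limb mesenchyme, had the smallest p among them, with 67.9, 94.5 and 80.8 TPM at 2 months, 119, 160 and 177 TPM at 12 months, and 261, 161 and 133 TPM at 24 months. Its 24-month values did not overlap those of 2 months, with a log2 fold change of 1.14 ± 0.24 (SE, limma adjusted p = 0.120). Shox2, a gene of the proximal limb skeleton, averaged 69.3 ± 27.4 TPM at 24 months and 111 ± 4.94 TPM at 12 months (SD, n = 3 each, limma adjusted p = 0.233). En1, a gene of ventral limb ectoderm, averaged 2.33 ± 1.78 TPM at 24 months and 0.487 ± 0.232 TPM at 2 months (SD, n = 3 each, limma adjusted p = 0.278). En1 was under 1 TPM in every library of 2 months and passed the filter through the older libraries alone. That favours such a difference, so it is not evidence of a shift, although En1 is counted above.

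Polycomb proteins keep Hox genes silent and Trithorax proteins keep them active. Of the Polycomb list 26 of 29 genes were kept and of the Trithorax list, which includes the H3K27 demethylases, all 15, and none passed in any comparison. In the same order of comparisons an unadjusted p under 0.05 was found for 3, 1 and 2 Polycomb genes and for 0, 1 and 1 Trithorax genes, where 14.5%, 15.6% and 14.1% of all genes had one. Ezh2, the methyltransferase of the Polycomb repressive complex, averaged 11.4 ± 1.63 TPM at 24 months and 6.65 ± 1.46 TPM at 2 months (SD, n = 3 each, limma adjusted p = 0.252). Phc2, a subunit of the other main Polycomb complex, averaged 59.97 ± 10.1 TPM at 12 months and 98.4 ± 10.6 TPM at 2 months (limma adjusted p = 0.0920). Pcgf2 averaged 9.55 TPM at 24 months and 5.22 TPM at 2 months, and Pcgf5 8.32 TPM at 24 months and 19.5 TPM at 12 months (limma adjusted p = 0.258 and 0.184). Kdm6b, an H3K27 demethylase, averaged 2.95 ± 0.642 TPM at 12 months and 5.72 ± 0.928 TPM at 2 months (SD, n = 3 each, limma adjusted p = 0.234). Men1, Kmt2b and Paxip1, parts of histone H3K4 methyltransferase complexes, had limma adjusted p values of 0.314 or more.

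Among genes that act upstream of Hox genes, here the retinoic acid pathway, the Cdx factors, Gdf11 and Gmnn, 10 of 17 were kept and none passed. An unadjusted p under 0.05 was found for 5, 4 and 0 of the 10 for 24 against 2, 12 against 2 and 24 against 12 months, beside 14.5%, 15.6% and 14.1% of all genes. Of the 5, Aldh1a1 was under 1 TPM in every library of 2 months. It passed the filter through the older libraries alone, which favours such a difference, so its p is not evidence of a shift. Aldh1a3, an enzyme that makes retinoic acid, came closest, with 23.0, 9.54 and 15.5 TPM at 12 months against 46.5, 30.7 and 60.9 TPM at 2 months. The 2 ages did not overlap, with a log2 fold change of -1.49 ± 0.31 (SE, limma adjusted p = 0.0534). Rarg, a retinoic acid receptor, averaged 22.05 ± 1.35 TPM at 12 months and 35.9 ± 3.33 TPM at 2 months (SD, n = 3 each, limma adjusted p = 0.0834), and Rxra, its dimer partner, 7.06 ± 1.48 TPM at 24 months and 12.8 ± 1.34 TPM at 2 months (limma adjusted p = 0.183). Gmnn, whose product geminin binds HOX proteins, averaged 23.9 ± 3.15 TPM at 24 months and 10.6 ± 4.95 TPM at 2 months (limma adjusted p = 0.153). Cdx2 and Cdx4 were listed at 0 in all 9 libraries.

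Of 10 genes that flank the clusters 7 were kept, with none called and 1, 0 and 2 at an unadjusted p under 0.05, beside the same shares of all genes (14.5%, 15.6% and 14.1%). Skap2, the gene beside the HoxA cluster, averaged 52.5 ± 1.88 TPM at 24 months and 34.7 ± 2.62 TPM at 2 months (SD, n = 3 each, limma adjusted p = 0.166). Lnpk, beside HoxD, averaged 17.9 ± 3.66 TPM at 24 months and 12.2 ± 1.80 TPM at 12 months (limma adjusted p = 0.321). Hibadh and Calcoco1 had limma adjusted p values above 0.40 in every comparison, and Evx1, next to Hoxa13, was listed at 0 throughout.

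Other cell types can be present in a callus, and their markers were read beside the 24-month values. Of all genes tested for 24 against 2 months, 47.9% had a positive log2 fold change and 0.159% were called. Of 10 smooth muscle and pericyte markers 9 were kept, and 8 of these had a positive log2 fold change for 24 against 2 months. Actg2 was called in that comparison (limma adjusted p = 0.0355). Rgs5 and Kcnj8 were under 1 TPM in every library of 2 months and were kept through the older libraries, which favours a positive fold change. Each sum given here covers all markers of a list, kept or not. The 10 smooth muscle and pericyte markers summed to 171 to 279 TPM at 2 months, 146 to 478 TPM at 12 months and 486 to 1104 TPM at 24 months. All 8 fibroblast and tendon markers were kept, 7 had a positive log2 fold change for 24 against 2 months, and the 8 summed to 130 to 199, 155 to 211 and 198 to 511 TPM at 2, 12 and 24 months. Of the 7, Pi16 was under 1 TPM in every library of 2 months and was likewise kept through the older libraries. Of 8 endothelial markers 3 were kept, and all 8 summed to 3.36 to 9.23, 5.35 to 11.2 and 9.93 to 16.7 TPM. The highest sum, in library 1 of 24 months, held 9.40 TPM of Flt1, which was not kept. Of 9 macrophage and leukocyte markers 5 were kept, and all 9 summed to 41.5 to 64.0, 36.5 to 62.9 and 53.3 to 87.6 TPM. Of 9 skeletal muscle markers 3 were kept, and all 9 summed to 20.1 to 29.3, 30.1 to 31.6 and 41.0 to 47.4 TPM. The defining genes Myh2, Myod1 and Myog were listed at 0. Of 6 erythroid markers 5 were kept, and all 6 summed to 151 to 338, 221 to 926 and 73.3 to 965 TPM, which overlapped between all ages. For 24 against 2 months the log2 fold change was below 0 for 7 of 9 osteoblast markers (median -0.28), and none passed. All 10 chondrocyte markers had a negative log2 fold change for 24 against 2 months, with a median of -0.96. The part of these markers in the 24-month values of Hoxb2, Hoxd8, Hoxd9 and the antisense transcripts was not tested.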

How the data were processed

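The deposited table holds log2 values, which the authors made with Salmon on GRCm38.p6, per the submitters' processing notes. With the log2 and an offset of 1 undone, every column sums to 1000000, so the values were read as log2(TPM + 1). Annotation, transcript summing and strand are not stated in the sources. Per the labels' protocols, cDNA came from a low-input kit, reads were paired ends of 76 bases, and mapped reads, in units of 1000000, averaged about 45 per sample. TPM keeps no depth, so that of each library is unknown. Libraries of an age are numbered in column order, because the headers name the age alone.

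Rows that reached 1 TPM in 3 or more of 9 libraries were kept, and a model of the 3 ages was fitted to the 9 libraries together (limma 3.58.1, R 4.3.3, moderated, intensity trend, two-sided), adjusted over 14501 genes at 0.05. The log2(TPM + 1) scale understates fold changes of low genes. The pipeline was tested on simulated data. Kept Hox genes were named; other lists by their up to 4 smallest p values. Overlaps and coordinates came from GENCODE M21, promoters from RefSeq. The Hox genes and all lists were chosen with earlier results of these data known. Protein sequences were not used here, and 1 Hox gene below the filter is counted but not reported here. Alternatives changed the offset, filter, scaling, variance model, libraries and threshold.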

Additional observations from a re-analysis of the deposited data

How the results depend on the processing

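No paired analysis was possible because the columns carry no replicate number. Of 263 alternative values for 15 Hox fold changes none was reversed, but many of them could not change. A different filter, variance model or threshold, or a fit of only the ages compared, leaves a fold change as it is. Leaving out a library of an age not compared does so too. By adjusted p, 262 of the values kept their side of the threshold. The exception was Hoxb2 for 24 against 12 months (log2 fold change 1.32), which passed at a threshold of 0.10 and made the Hox count 1 there. Leaving out a library kept the Hox counts at 0 in each pairwise comparison and the trend, and between 0 and 1 in the F test for any age, where 1 gene passed without library 1 of 24 months (smallest adjusted p 0.0379). The filter of 5 TPM gave no value for Hoxb7, Hoxd8, Hoxc5 or Hoxc4. The Hox genes counted as expressed numbered 8 at a mean of 5 TPM and 5 at 10 TPM, against 13 at 1 TPM. The share of groups 9 and 10 stayed between 49.8% and 51.6%, and that of HoxA between 52.1% and 54.3%, without 1 library.

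Counts over all genes moved far more, and the cause was not tested. For 24 against 2 months (23) they were 5 with an offset of 0.1, 0 with no filter, 3 with no intensity trend, 39 at a threshold of 0.10, and 1 to 430 without 1 library. For 12 against 2 months (105) they were 57, 8, 15 and 405 under the same settings, 270 with only the ages compared, and 17 to 220 without 1 library. For 24 against 12 months (66) they were 43, 0, 4 and 239, with 2 for only the ages compared, 100 with median-of-ratios scaling, and 2 to 345 without 1 library. For any age (110) they were 0 with no filter, 171 with a filter of 5 TPM, 14 with no intensity trend, 404 at 0.10, and 22 to 676 without 1 library. For the trend (0) they were 1 with an offset of 0.1, 8 with a filter of 5 TPM, 9 at 0.10, and 0 to 143 without 1 library. The highest count without 1 library came in each of these but 12 against 2 months from leaving out library 3 of 24 months, and for 12 against 2 months from leaving out library 1 of 24 months. Higher and lower calls for 12 against 2 months were 38 and 67, and 58 and 57 with median-of-ratios scaling; for 24 against 12 months they were 22 and 44, and 18 and 82 with median-of-ratios scaling or 19 and 71 with quantile scaling. Depth per library is unknown, which limits what can be said of the 24 Hox genes below the filter.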
